A study of Drosophila melanogaster with 8 samples.

Results

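The genes described here encode the proteins of the cytosolic ribosome of Drosophila melanogaster, together with their duplicated or related copies. They were chosen by name, as the rows of the deposited gene table whose symbol starts with RpS or RpL and a digit, or with RpLP, plus sta, the fly name of the small-subunit protein SA. The rule found 93 of 15182 fly rows, 54 for the large subunit and 39 for the small one. RNA came from dissociated embryos at early stage 14 that carried the transgene E10::EGFP, collected over 1 h and aged for about 11 h at 25 °C. E10 is an enhancer of ovo, the gene that directs epidermal cells to form the cuticle hairs called trichomes, and EGFP marks the cells in which the enhancer was active. In each of 4 independent sorts the EGFP-positive cells were collected, called GFP-positive here, and 50000 cells were also taken from the scatter gate before the EGFP gate, which are the all-cell samples. Both groups carried the transgene, and the all-cell samples contained EGFP-positive cells too. The design text of the series calls the second group GFP-negative, and the labels of the samples are followed here. The sort gates were set on wild type embryos, and each sample pooled the cells of many embryos. The only question the design poses is how the marked cells differ from the embryo as a whole, with 4 libraries in each group.

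A ribosome consists of a small subunit, which reads the messenger RNA, and a large subunit, which joins amino acids. Each is built on ribosomal RNA and carries many proteins, most of which the fly encodes with 1 gene. Losing 1 copy of such a gene often gives the Minute phenotype of slow development and thin bristles, so the dose of these genes matters to the animal. Some ribosomal proteins have a second gene, and several of these second genes are known for expression in the testis or the germ line. Among the related genes with names ending in "-like" are RpLP0-like, RpL7-like and RpL24-like. They resemble yeast factors that build the large subunit and leave it before it takes part in translation.

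Values were fragments scaled by transcript length and by library size (FPKM), so levels of different genes can be set beside each other per length. By an estimate from the low values, 1 fragment on a transcript of 1 kb was worth 0.098 to 0.142 FPKM in GFP-positive libraries and 0.079 to 0.094 FPKM in all-cell libraries. The groups differed widely in cell type genes. The lists of these genes were chosen with earlier results of these data known, so they describe the sort and are no independent check of it. Of all genes tested, 11.6% were called higher in GFP-positive cells and 38.7% lower. All 13 epidermal and trichome genes listed were called higher in GFP-positive cells, and their summed level was 3909 to 6144 FPKM against 431 to 958 FPKM. Of 11 neuroblast genes 10 were called lower, with sums of 60.7 to 162 FPKM against 364 to 746 FPKM, and all 16 cell cycle genes were called lower, with sums of 130.2 to 235 FPKM against 565 to 718 FPKM. None of the neuroblast or cell cycle genes was listed at 0 in all GFP-positive libraries. What part these differences in cell type and division have in the results below was not tested. In such samples, fewer cells of a type and less RNA per cell cannot be told apart.

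Ribosomal protein genes were among the most abundant transcripts of both groups. Of the 93 members, 83 reached a mean of at least 100 FPKM over the 8 libraries, with a median of 1052 FPKM and quartiles of 691 and 1664 FPKM. The most abundant was RpL41, a large-subunit protein of 25 residues, at 8992 to 12036 FPKM in GFP-positive libraries and 10248 to 14666 FPKM in all-cell libraries. A transcript so short makes its FPKM uncertain. It was followed by RpS7, RpS3, RpS15 and RpS3A of the small subunit, RpL10 and RpL31 of the large subunit, RpS18 and RpS27 of the small subunit, and RpL28 of the large subunit, with means over the 8 libraries that descended from 6872 to 2660 FPKM. In sorts 1 to 4, RpS7 stood at 7302, 6748, 5964 and 7393 FPKM in GFP-positive cells and at 7362, 6815, 5277 and 8115 FPKM in all cells. The 2 groups overlapped throughout for this gene. The other 10 members had means under 100 FPKM, and 7 of them were under 10 FPKM. They included RpL24-like, RpLP0-like, RpS19b, RpS28-like, RpL22-like, RpL10Aa, RpS10a, RpS28a and RpL37b, all second copies or related genes.

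The members lay on all major chromosome arms, with 23 on 3R, 21 on 2R, 19 on 2L, 15 on X and 13 on 3L, 1 on chromosome 4 (RpS3A) and 1 in the heterochromatin of 3L (RpL15). On the dm3 build, 44 of the 93 loci overlapped another row of the table, and 26 overlapped a row named as a small nucleolar RNA. Such RNAs guide the modification of ribosomal RNA and are processed from introns of host genes. Of these 26 genes, 11 were called lower in GFP-positive cells, against 42 of all 89 members tested and 38.7% of all genes. The median protein length was 156 residues in the Ensembl annotation of release 115.

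Taken as a whole, ribosomal proteins were a large share of the transcriptome in both groups. Their summed level was 23.8, 21.8, 22.5 and 23.1% of all fly FPKM in the GFP-positive libraries of sorts 1 to 4. In the all-cell libraries it was 27.0, 25.3, 23.6 and 28.3%. The GFP-positive share was lower in each sort, by the least in sort 3 and the most in sort 4, but the highest GFP-positive value lay above the lowest all-cell value, so the groups overlapped. The means were 22.8 ± 0.858% and 26.0 ± 2.04% (SD, n = 4 each). No test was made on these shares.

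Gene by gene, the difference was small and similar across the family. Of the 89 members tested on log2(FPKM + 1) with limma across all 10943 genes, 42 were called lower in GFP-positive cells at an adjusted p under 0.05, where 38.7% of all genes were called lower. None was called higher, also at an unadjusted p under 0.05, against 11.6% of all genes called higher. The members called lower were 47.2% of those tested, and whether this share lay above or below that of all genes depended on the fit and the libraries used, as given next. The median log2 difference of the members was -0.36, which lay 0.11 above the median of all genes tested, -0.47. The sign of this gap depended on the processing. It was 0.21 with a pseudocount of 0.1 and 0.20 with trimmed-mean scaling. It was -0.08 with a pseudocount of 5, -0.0002 without the filter on low values and -0.23 with quantile normalization. For the large subunit 27 of 52 were lower with a median of -0.38, and for the small subunit 15 of 37 with a median of -0.35. Within sorts 1 to 4 the members' median was -0.31, -0.35, -0.20 and -0.61, beside -0.47, -0.52, -0.34 and -0.54 for all genes. In sort 4 alone the members' median lay below that of all genes. In all 4 sorts 82 of the 89 were lower in GFP-positive cells, where 51.1% of all genes were, and the 2 groups did not overlap for 42 members, all of them lower, where 34.8% of all genes had every GFP-positive value below every all-cell value and 10.2% every one above.

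Which members were called depended on the reference. With the sort as a block, limma called 63 members lower, 70.8% of those tested, beside 44.6% of all genes. With a trimmed-mean scaling, which moved the median of all genes to -0.02, the members' median was 0.19, and 11 were called higher and 2 lower, beside 21% and 18.8% of all genes. With subgroup B of the spike-ins as the scale, which moved the median of all genes to -1.35, 86 were called lower with a median of -1.42, or 96.6% of those tested beside 64.8% of all genes. The count of 42 lower calls became 9 without sort 4, or 10.1% of the members beside 30.9% of all genes. It was 21 without sort 2, or 23.6% beside 27.2% of all genes, and 26 without sort 1, or 29.2% beside 30.1%. Leaving out single libraries, it was 24 and 25 without GFP-positive libraries 2 and 4, beside 32.7% and 38.5% of all genes, and 23 and 21 without all-cell libraries 1 and 4, beside 32.6% and 31.1%. The members' share of lower calls was thus below that of all genes in each of these 7 cases. They are only part of the leave-out fits, however. Among the leave-out fits not listed here the count of members called lower rose as high as 55.

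**Figure D1:**
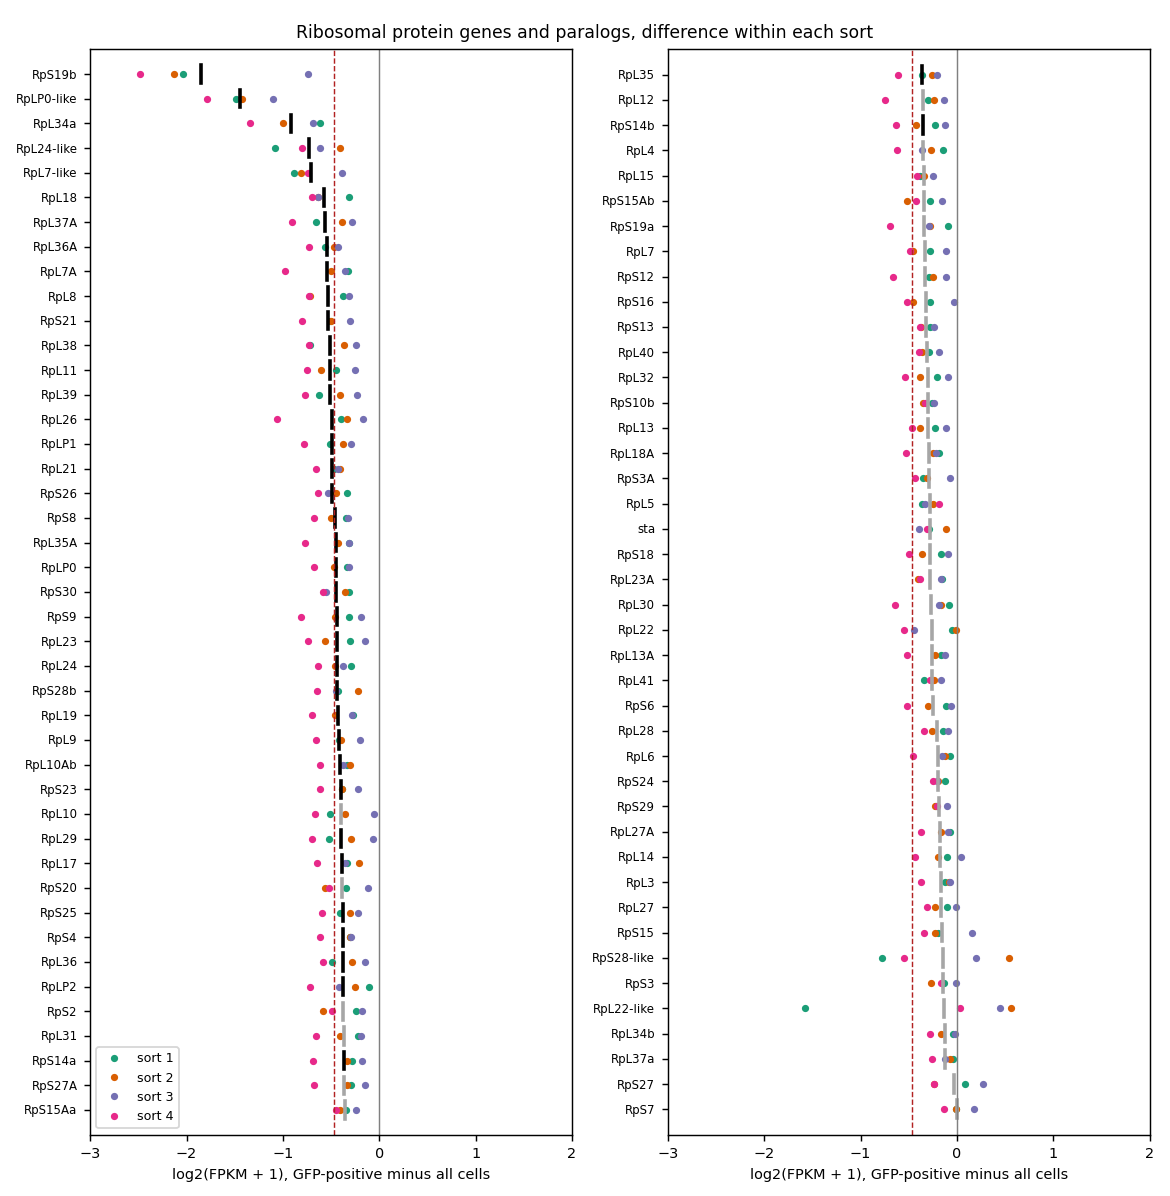
Log2 differences of 85 of the 89 ribosomal protein genes tested, GFP-positive minus all cells on the log2(FPKM + 1) scale, ordered by their mean difference from the left panel to the right. Dots are the 4 sorts, vertical bars are the means over 4 libraries a group (black where limma called the gene lower, grey where it did not), the solid line is 0 and the dashed line is the median of all genes tested, -0.47. Most genes form a narrow band, RpS19b, RpLP0-like and RpL34a lie to its left, and sort 4 is often the lowest.

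The members differed little among themselves. Over the 83 members with means of at least 100 FPKM, the log2 differences had an SD of 0.15, with quartiles of -0.45 and -0.28. Over the other 591 genes at that level the SD was 1.55, with quartiles of -0.68 and 0.78 around a median of -0.06. The 83 ranged from -0.91 for RpL34a to 0.00 for RpS7. Their levels spread far more widely, with an SD of 1.15 on the log2 scale.

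**Figure D2:**
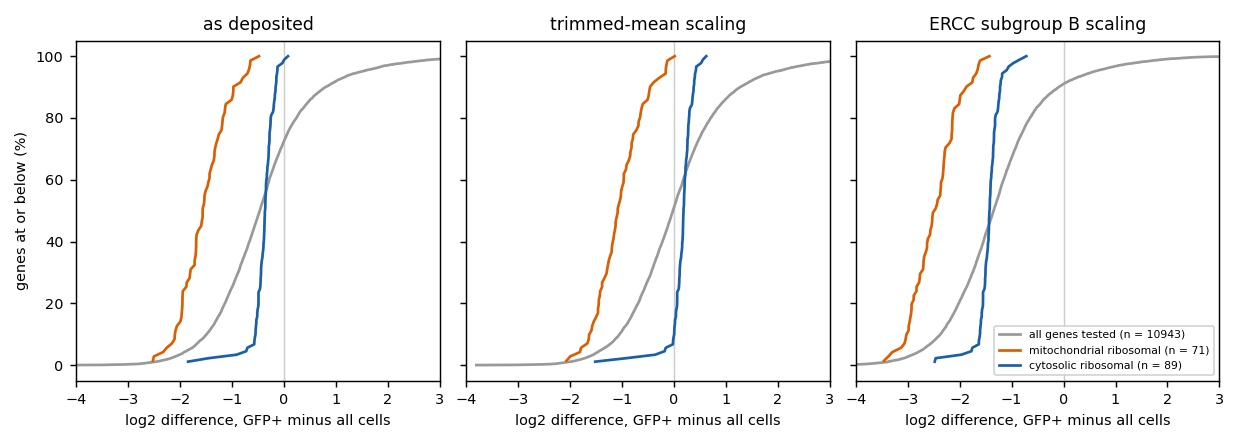
Cumulative share of genes by log2 difference, GFP-positive minus all cells, for 89 cytosolic ribosomal protein genes (blue), 71 mitochondrial ribosomal protein genes (orange) and all 10943 genes tested (grey), with the values as deposited, with trimmed-mean scaling and with scaling by spike-ins of subgroup B. The blue curve is steep in each panel; its median is -0.36, 0.19 and -1.42 from left to right, and the orange curve lies to its left in each.

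Copies of the same protein were compared next. The 93 members hold 14 pairs of a gene and a second copy or related gene, with RpS28b in both RpS28a/RpS28b and RpS28-like/RpS28b. For each pair the share of the less abundant copy in the pair's summed FPKM was compared, since a share within a library does not change with the scaling between libraries. An exact two-sided permutation test of 4 against 4 libraries cannot give less than p = 0.0286. That value was reached by 4 pairs, those of RpL34, RpL7, RpLP0 and RpS19, in which the groups did not overlap. Adjusted over the 14 pairs by Benjamini and Hochberg it became 0.1, so no pair passed 0.05 after adjustment in this exact test.

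RpL34, a protein of the large subunit, is encoded by 2 genes on chromosome arm 3R, RpL34a (CG6090, 21884142 to 21884989 on dm3) and RpL34b (CG9354, 5226033 to 5226978). In sorts 1 to 4, RpL34a stood at 214, 153, 145 and 149 FPKM in GFP-positive cells and at 328, 308, 235 and 379 FPKM in all cells. Every GFP-positive value lay below every all-cell value, and GFP-positive library 1 was the highest of its group. RpL34b stood at 178, 147, 127 and 169 FPKM in GFP-positive cells and at 183, 165, 129 and 205 FPKM in all cells. For this copy the groups overlapped, although the GFP-positive value was the lower one in each sort. RpL34a fell by 0.91 on the log2 scale (SE 0.17, limma adjusted p = 0.00143), and RpL34b differed by -0.13 (SE 0.17, limma adjusted p = 0.546). With trimmed-mean scaling RpL34a was at -0.36 (limma adjusted p = 0.0760) and no longer called, whereas RpL34b was at 0.43 and called higher (limma adjusted p = 0.0247).

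The share of RpL34b in the pair was 35.8, 34.9, 35.5 and 35.1% in the all-cell libraries of sorts 1 to 4. In the GFP-positive libraries it was 45.5, 49.0, 46.7 and 53.1%. All-cell samples thus held nearly the same ratio of the copies in every sort, and in GFP-positive cells of sort 4 RpL34b was the more abundant copy. The means were 48.6 ± 3.36% and 35.3 ± 0.412% (SD, n = 4 each), a difference of 13.2 percentage points (exact permutation p = 0.0286, unadjusted). The difference was 11.7 to 14.3 points when each library was left out in turn. The 2 encoded proteins have 162 (RpL34a) and 168 residues (RpL34b).

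The RpS14 and RpS15A pairs kept nearly the same split in both groups. RpS14a and RpS14b, which lie beside each other on the X chromosome and encode the same protein, gave a share of RpS14b of 36.5 ± 0.473% in GFP-positive and 36.2 ± 1.35% in all cells (SD, n = 4 each; exact permutation p = 0.743). RpS15Ab gave 18.4 ± 0.247% and 18.3 ± 0.707% of the RpS15A pair (SD, n = 4 each; exact permutation p = 0.743). The coding sequences within each of these pairs are very similar, and how the authors' counting divided fragments between them is not given in the sources used here, so these splits are uncertain. The largest distance from 0 in either pair, with each library left out in turn, was 0.880 points for RpS14b.

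**Figure D3:**
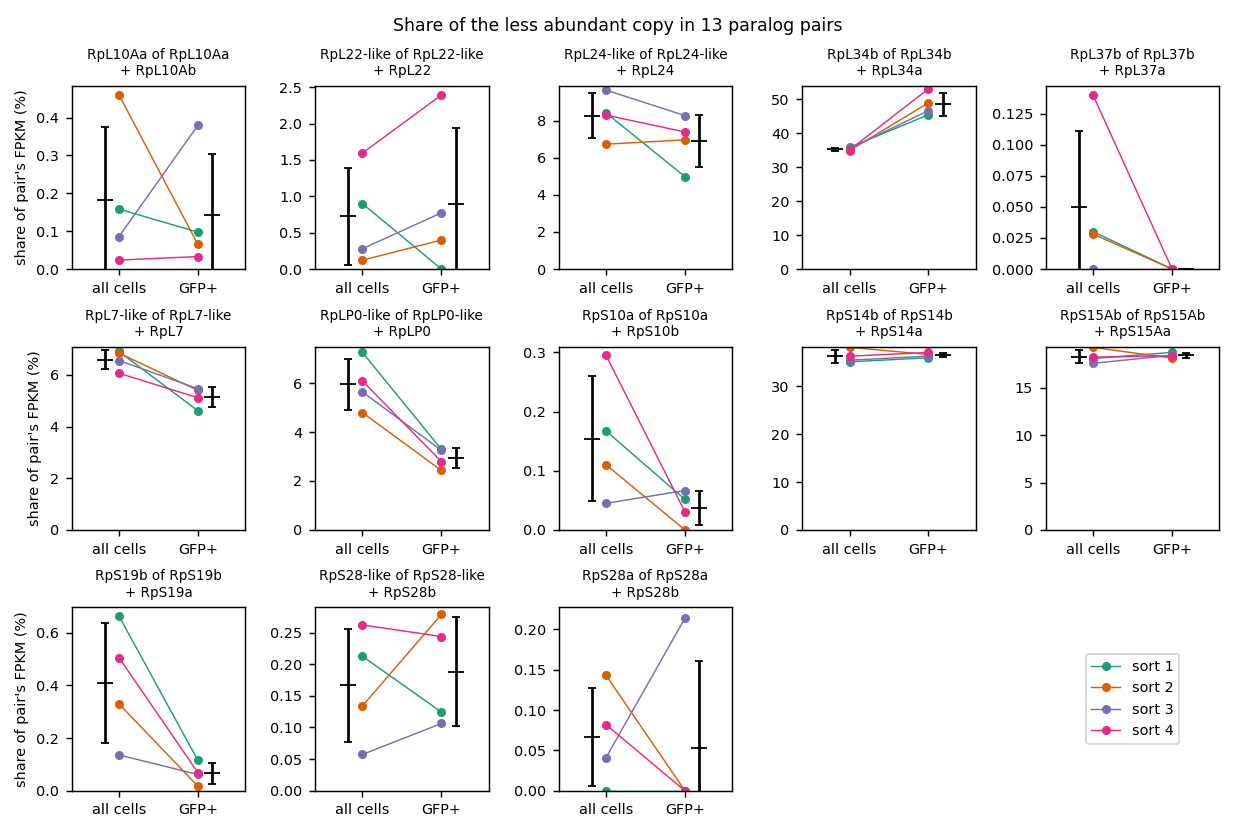
Share of the less abundant copy in the summed FPKM of 13 pairs of ribosomal protein genes, in percent, in all cells and in GFP-positive cells (GFP+). Lines join the libraries of a sort, black marks are the mean ± SD over 4 libraries, axes start at 0, and the scale differs between panels. RpL34b is higher in GFP-positive cells by 13.2 points, RpL7-like, RpLP0-like and RpS19b are lower without overlap, and the mean shares of RpS14b and RpS15Ab differ by less than 1 point.

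The "-like" genes related to ribosome assembly factors were lower in GFP-positive cells. RpLP0-like (CG1381), related to yeast Mrt4, which holds the place of the stalk protein P0 on the unfinished large subunit, stood at 19.3, 13.0, 16.3 and 14.3 FPKM in GFP-positive cells of sorts 1 to 4. In all cells it stood at 55.9, 36.4, 36.0 and 51.7 FPKM, without overlap. It fell by 1.45 on the log2 scale (SE 0.20, limma adjusted p = 1.7e-04) and was called lower under trimmed-mean scaling too, at -0.91 (limma adjusted p = 0.00142). Its share beside RpLP0, the stalk protein itself, was 2.94 ± 0.411% against 5.94 ± 1.02% (SD, n = 4 each; exact permutation p = 0.0286, unadjusted). The locus overlaps that of Jra, so the fragments of the 2 genes are not fully separable.

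RpL7-like (CG5317, chromosome 2L, 12056324 to 12057416), related to yeast Rlp7, which acts in the processing of large-subunit ribosomal RNA, stood at 78.8, 78.0, 80.2 and 80.4 FPKM in GFP-positive cells and at 147, 138, 105 and 134 FPKM in all cells. The groups were apart, and the GFP-positive values were nearly equal. It fell by 0.71 (SE 0.13, limma adjusted p = 0.00111), and its share beside RpL7 was 5.15 ± 0.388% against 6.59 ± 0.384% (SD, n = 4 each; exact permutation p = 0.0286, unadjusted). RpL24-like (CG6764, chromosome 3R, 7256462 to 7257397), related to yeast Rlp24, a placeholder for RpL24 on the unfinished subunit, stood at 51.0, 61.5, 67.7 and 67.2 FPKM against 109, 81.7, 104 and 118 FPKM. It fell by 0.73 (SE 0.15, limma adjusted p = 0.00238), but its share beside RpL24 overlapped between the groups, at 6.90 ± 1.39% against 8.28 ± 1.20% (SD, n = 4 each; exact permutation p = 0.229). With trimmed-mean scaling neither was called, with log2 differences of -0.15 for RpL7-like and -0.18 for RpL24-like. The loci of both overlap another gene, CG34164 and CG18643.

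Some, but not all, of the second copies known from the gonads were rare in these embryos. RpS19b (CG5338, chromosome 3R, 19758451 to 19759252), a germ-line copy of the small-subunit protein S19, stood at 1.50, 0.181, 0.648 and 0.722 FPKM in GFP-positive cells and at 9.24, 4.18, 1.75 and 8.62 FPKM in all cells. The groups did not overlap, and all-cell library 3 came close to the GFP-positive values. In GFP-positive libraries 3 fragments on a transcript of 1 kb were worth 0.294 to 0.426 FPKM, counting error only, so the value in GFP-positive library 2 was under it. RpS19b had the largest fall of the family, with a log2 difference of -1.85 (SE 0.43, limma adjusted p = 0.00452), and of -1.51 with trimmed-mean scaling (limma adjusted p = 0.00805). Its share beside RpS19a was 0.0660 ± 0.0402% against 0.409 ± 0.227% (SD, n = 4 each; exact permutation p = 0.0286, unadjusted).

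Germ cell genes moved unevenly beside it. Of 10 tested from a list of 12, 4 were called lower and 1 higher. These shares of 40% and 10% were near the 38.7% and 11.6% of all genes. Those called lower were led by vas, the germ-line RNA helicase, at 0.906 ± 0.310 against 11.3 ± 3.88 FPKM (SD, n = 4 each). The others were zpg, a gap junction protein, vls, a component of the pole plasm, and spn-E, a helicase of the piRNA pathway. The gene called higher was tud, at 81.9 ± 6.11 against 52.4 ± 5.26 FPKM (SD, n = 4 each). The summed level of the list, in which tud had the highest level, was 133 to 149 FPKM against 122 to 156 FPKM. Their part in the value of RpS19b was not tested.

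Several other second copies stayed near the floor. RpL37b was listed at 0 in all 4 GFP-positive libraries and at 0.267, 0.226, 0 and 1.52 FPKM in all cells of sorts 1 to 4. RpS10a, whose locus lies over that of tau, reached at most 0.562 FPKM in GFP-positive cells and 3.47 FPKM in all cells. RpS28a was listed at 0 in GFP-positive libraries 1, 2 and 4, and RpL10Aa stood at 0.229 to 3.08 FPKM in GFP-positive and 0.253 to 4.39 FPKM in all cells. These 4 genes failed the filter of 1 FPKM in at least 4 libraries and were not tested one by one. RpL22-like, a testis copy, and RpS28-like passed it and differed by -0.13 and -0.15 (limma adjusted p = 0.854 and 0.758). Their shares and those of the 4 untested genes overlapped between the groups, and the lowest exact permutation p among them was 0.0857, for RpS10a.

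Among the abundant members, the falls behind RpL34a were small and alike. RpL18, RpL37A and RpL36A were among those next in size, with log2 differences from -0.57 to -0.55 (limma adjusted p from 0.00391 to 0.00738). RpL18, of the large subunit, stood at 462, 346, 369 and 398 FPKM in GFP-positive cells of sorts 1 to 4 and at 576, 539, 573 and 649 FPKM in all cells. The groups were apart. RpL37A, a large-subunit protein unrelated to the RpL37a/RpL37b pair despite its name, stood at 325, 298, 311 and 270.0 FPKM against 513, 391, 379 and 509 FPKM, again without overlap. With trimmed-mean scaling these 3 genes lay between -0.02 and 0.01, and none was called. Without sort 4, RpL37A and RpL36A missed the threshold.

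At the other end of the family, 11 members were called higher with trimmed-mean scaling, and none of these was called with the values as deposited. They were RpL14, RpL27, RpL27A, RpL28, RpL34b and RpL37a of the large subunit and RpS7, RpS15, RpS24, RpS27 and RpS29 of the small subunit. RpS27, a zinc-binding protein of the small subunit, stood at 2827, 2184, 2717 and 2833 FPKM in GFP-positive cells and at 2671, 2578, 2249 and 3354 FPKM in all cells. Its groups overlapped, and the GFP-positive value was the higher one in 2 of 4 sorts. Its log2 difference was -0.03 as deposited (limma adjusted p = 0.892) and 0.52 with trimmed-mean scaling (limma adjusted p = 0.00693). With each library scaled by its median ribosomal protein, a setting chosen after seeing the data, which asks what differs within the family, RpS27 at 0.40 and RpS7 at 0.43 were called higher. RpS19b at -1.59, RpLP0-like at -1.04 and RpL34a at -0.49 were called lower, beside 18.3% and 22.8% of all genes called higher and lower.

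Isoforms of the members were tested in the same way. The isoform table lists 179 transcripts of the members, and 47 members have more than 1. Of 166 tested, 49 were called lower, where 27.1% of all isoforms were, and 64 with the sort as a block, where 29.5% of all isoforms were. None was called higher by limma, also at an unadjusted p under 0.05, where 9.43% of all isoforms were called higher. The largest falls among the isoforms called were those of RpL15-RB and RpS15-RB, minor transcripts of their genes, and of RpS19b-RB, the only form of its gene. RpL15-RB stood at 2.38 ± 2.15 against 11.1 ± 3.79 FPKM, and RpS15-RB at 5.92 ± 3.30 against 22.4 ± 9.06 FPKM (SD, n = 4 each). RpS15-RB made up 0.141% of its gene's FPKM in GFP-positive cells and 0.492% in all cells. A larger fraction was seen in RpS10b, whose transcript RB, named here after its values were seen, made up 11.7% against 21.6% and fell by 1.13 (SE 0.25, limma adjusted p = 0.00719), but was at -0.58 and not called with trimmed-mean scaling (limma adjusted p = 0.196). RpS4-RA and RpL17-RB, also named after their values were seen, made up 27.5% against 41.9% and 15.3% against 25.3% of their genes. RpS4-RA fell by 0.98 (SE 0.15, limma adjusted p = 0.0011), whereas RpS4-RB differed by -0.05. With trimmed-mean scaling RpS4-RA was at -0.42 and RpL17-RB at -0.56, and neither was called (limma adjusted p = 0.146 and 0.168). The main transcripts of these genes, also named after their values were seen, rose on that scale. RpS4-RB at 0.50 and RpS10b-RC at 0.43 were called higher (limma adjusted p = 0.0227 and 0.0202), and RpL17-RA at 0.38 was not called (limma adjusted p = 0.172).

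The other genes of translation did not all move with the ribosomal proteins. The factors that carry the ribosome along the message and release it differed least as deposited. Of 8, eEF1delta, a subunit of the exchange factor for the tRNA carrier, was called lower at 48.8 ± 10.9 against 147 ± 19.2 FPKM, and so was Ef1alpha100E, a second gene of that carrier, at 14.7 ± 8.30 against 26.9 ± 7.40 FPKM (SD, n = 4 each). The list's median was -0.09, and 25% of it were called lower beside 38.7% of all genes. With trimmed-mean scaling 6 were called higher and 1 lower, or 75% and 12.5%, beside 21% and 18.8% of all genes. Of 21 initiation factors matched, 12 were called lower and 1 higher, or 57.1% and 4.76%, beside 38.7% and 11.6% of all genes. Their median of -0.45 was close to the -0.47 of all genes. The largest change was that of eIF6, which keeps new large subunits from joining small ones, at 5.49 ± 1.20 against 17.8 ± 5.50 FPKM. It was followed by the eIF3 subunits eIF-3p66 and eIF-3p40 and by CG17737, the factor eIF1, which with trimmed-mean scaling lay between -0.12 and -0.09 and were not called. pAbp, the poly(A) binding protein, was the gene called higher, at 1773 ± 218 against 1256 ± 115 FPKM (SD, n = 4 each). With trimmed-mean scaling 6 initiation factors were called higher and 1 lower, or 28.6% and 4.76%, beside 21% and 18.8% of all genes. Of 4 ribosome-associated genes, Nacalpha and bic, the subunits of the nascent polypeptide-associated complex, were called lower, also with trimmed-mean scaling, at 457 ± 43.3 against 985 ± 198 FPKM and 774 ± 156 against 1556 ± 273 FPKM (SD, n = 4 each).

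The factors that build ribosomes were mostly called lower in GFP-positive cells. Of 28 factors of ribosome biogenesis and RNA polymerase I, 25 (89.3%) were called lower, beside 38.7% of all genes, with a median of -1.21. With trimmed-mean scaling 21 (75%) were called lower and 1 (3.57%) higher, beside 18.8% and 21% of all genes. Fib, the methyltransferase fibrillarin of the nucleolus, stood at 49.4, 43.2, 43.6 and 55.1 FPKM in GFP-positive cells of sorts 1 to 4 and at 162, 157, 118 and 181 FPKM in all cells. The groups were far apart. hoip, a protein of small nucleolar RNA particles, l(1)1Bi and Mat89Ba had log2 differences of -2.27, -1.77 and -1.66. The 71 proteins of the mitochondrial ribosome, which are encoded in the nucleus and serve another ribosome, had 65 called lower with a median of -1.56, and 54 with trimmed-mean scaling. These were 91.5% and 76.1% of the list, beside 38.7% and 18.8% of all genes. mRpL3, mRpL12, mRpS18A and mRpL21 led them, with log2 differences from -2.52 to -2.26. The summed level of the biogenesis list was 667 to 814 FPKM against 1206 to 1806 FPKM, and that of the mitochondrial list 482 to 651 FPKM against 1292 to 2224 FPKM.

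**Figure D4:**
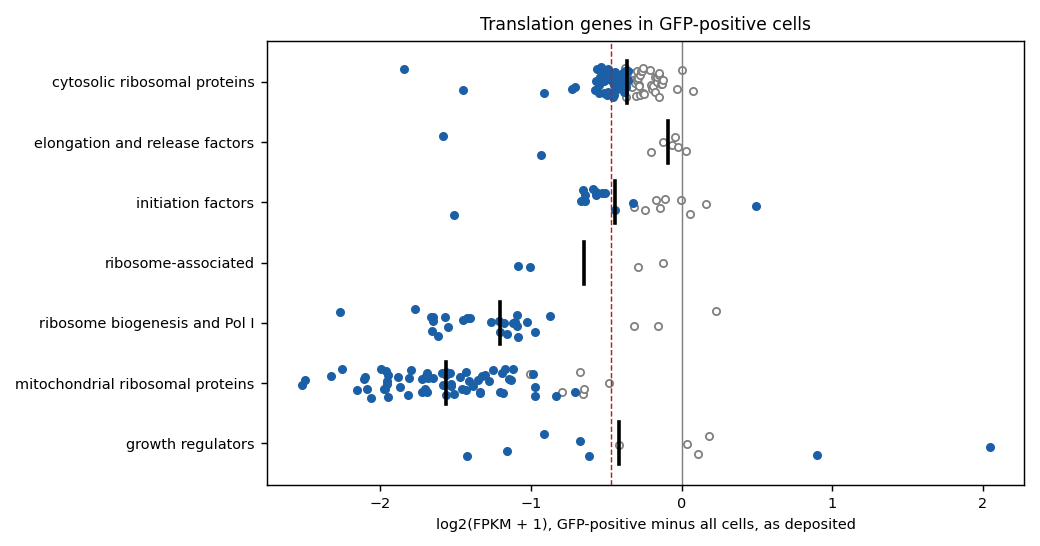
Log2 differences, GFP-positive minus all cells on the log2(FPKM + 1) scale as deposited, of the genes tested in 7 lists. Filled points were called by limma at an adjusted p under 0.05, open points were not, black bars are the medians of the lists, and the dashed line is the median of all genes tested, -0.47. Ribosomal proteins lie around -0.36, whereas ribosome biogenesis and mitochondrial ribosomal genes lie around -1.21 and -1.56.

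Among regulators of growth, Thor, the translation inhibitor 4E-BP, was higher in GFP-positive cells. It stood at 569, 812, 602 and 600.4 FPKM in GFP-positive cells of sorts 1 to 4 and at 255, 102, 128 and 166 FPKM in all cells, without overlap (log2 difference 2.05, SE 0.25, limma adjusted p = 8.3e-05). Dref, a factor of promoters of growth and replication genes, CG9797 (M1BP), a factor of ribosomal protein gene promoters, and Tor, the growth kinase, were called lower, with log2 differences of -1.43, -1.16 and -0.91. Dref and CG9797 were called lower with trimmed-mean scaling too, at -0.91 and -0.67, and Tor was not. The locus of Dref overlaps that of RpL13, so its fragments are not fully separable from those of that abundant gene. Of 11 tested, 2 were called higher and 5 lower, or 18.2% and 45.5%, beside 11.6% and 38.7% of all genes. The other gene called higher was Xrp1, a transcription factor known for its rise in cells that lack a ribosomal protein gene copy, named here after its values were seen. It stood at 176, 365, 251 and 379 FPKM in GFP-positive cells and at 148, 148, 155 and 149 FPKM in all cells. All-cell values were nearly equal, every GFP-positive value was higher, and the log2 difference was 0.90 (SE 0.22, limma adjusted p = 0.00538).

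The authors' deposited table compares each GFP-positive library with the all-cell library of its sort and calls few members. In sorts 1 to 4 of the authors' deposited table, 2, 1, 0 and 3 members were called lower, where 10.6, 9.81, 6.63 and 9.08% of all rows were. Those calls in the authors' deposited table were RpS19b in sorts 1, 2 and 4, RpL22-like in sort 1, and RpLP0-like and RpL34a in sort 4. RpL22-like, near the floor, was listed at 0 in GFP-positive library 1. Its log2 fold changes in the authors' deposited table were 1.71, 1.03 and 0.04 in sorts 2 to 4, and none of these was called.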

How the data were processed

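RNA of 4 GFP-positive and 4 all-cell samples was sequenced from 5 ng of total RNA after amplification and addition of ERCC spike-ins, per the labels' protocols. Per the submitters' processing notes, the build was dm3 and the tools included Cuffdiff 1.3.0, Cufflinks 1.3.0 and TopHat 1.4.0. Their parameters, the annotation and strand use are not stated in the labels or files. The authors deposited FPKM per gene and isoform, per the file headers, whereas the planned design allowed for RPKM; no per-sample column was left unused. The authors also deposited, per the file headers, Cuffdiff log2 fold changes (handled as a score, since an infinite fold is written there as a very large number) and q-values.

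Members and gene lists were chosen with earlier results of these data known. Genes with 1 FPKM or more in at least 4 of 8 libraries were tested on log2(FPKM + 1) with limma 3.58.1 (R 4.3.3, mean-variance trend, two-sided, no block), with Benjamini-Hochberg adjustment over all of them; fold changes on this scale understate low genes. Isoforms were tested in the same way. Shares of pairs were compared by exact permutation (scipy 1.17.1). The genes named are both copies of each pair, the 10 most abundant members, the 10 largest falls, members called in the opposite direction under trimmed-mean scaling (0 were), up to 4 called genes per other list and the 3 largest isoform changes each way; other genes named are said to be chosen later, except tud and pAbp, the only genes of their lists called higher, and the members called higher under trimmed-mean scaling or called in the authors' table. A few members, though counted and tested, are not reported here by name.

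Depth was estimated from steps in the FPKM of short single-exon loci of 500 to 2500 bases, at 7042250 to 10204100 fragments in GFP-positive and 10638300 to 12658200 in all-cell libraries. Amplified fragments are not independent molecules, so this covers counting error only. In simulated data for this comparison over 10943 genes, 200 of them changed, 0%, 30% and 85.5% of changes of 0.5, 1 and 2 log2 units were recovered, with 0, 2 and 11 false calls. The number of calls in the data was much larger than in this simulation, and recovery may differ with it.

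Sort numbers come from the labels and pair the samples. Within sorts 1 to 4, the 2 libraries' deviations from their group means had correlations of 0.44, 0.10, 0.41 and 0.17. Nothing says that the sorts used separate fly populations. The labels name spike-in Mix 2 for all samples, yet the log2 ratio of GFP-positive to all cells was -1.42, -1.14, -0.94 and 0.19 for spike-ins of the manufacturer's subgroup A and 0.69, 0.87, 0.97 and 2.15 for subgroup B in sorts 1 to 4, so spike-in scaling was an alternative only. Other alternatives were the pseudocount, the filter, upper quartile, quantile and trimmed-mean scaling (30% and 5% trimmed), summed isoforms, leaving out overlapping loci, libraries or sorts; subgroup B and scaling by the median ribosomal protein were added after seeing the data. Of the listed genes, 1 initiation factor, eIF-2gamma, was not matched, and CG6272 was listed at 0 throughout. Promoter motifs were not analysed here. Protein lengths and exons are from the Ensembl annotation of release 115 (BDGP release 6). Genes were matched by symbol or, where the symbol was absent there, by the current symbol of the CG number.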

Additional observations from a re-analysis of the deposited data

Results flagged for a closer look

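In 7 of 114 sets of 4 values examined, 1 library lay far from the other 3 of its group, by a gap that took up most of the group's range (Dixon's test at 95%); chance flags about 1 in 20 sets. RpL10 stood at 2363 FPKM in GFP-positive library 4, against 2809 to 2854 FPKM in the others. In GFP-positive library 1, RpL31 stood at 2845 FPKM against 2407 to 2481 FPKM, RpL34a at 214 FPKM against 145 to 153 FPKM, and RpS19a at 1296 FPKM against 1039 to 1047 FPKM. RpS3A stood at 2715 FPKM in all-cell library 3, against 3787 to 3974 FPKM. RpS28a stood at 1.93 FPKM in GFP-positive library 3 and was listed at 0 in the other 3, so that its share beside RpS28b was 0.214% there and 0 in the others.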

How the results depend on the processing

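The number of members called lower, 42, stayed within 1.5 times with other pseudocounts, other filters and summed isoforms, was 63 with the sort as a replicate block, and was 9 to 55 when libraries or sorts were left out, where none was called higher. Scaling between libraries changed it. With trimmed-mean scaling 2 were called lower and 11 higher, beside 18.8% and 21% of all genes. Upper quartile scaling gave 5 lower, or 5.62% of those tested beside 26.0% of all genes. Scaling by the sum of ERCC spike-ins gave 71 lower. Spike-ins of subgroup B gave 86 lower, beside 64.8% of all genes. When scaled by the median ribosomal protein, 3 were lower and 2 higher, beside 22.8% and 18.3% of all genes. With quantile normalization 28 were called lower. Without overlapping loci, 23 of 46 tested were lower, since fewer genes were tested. The shares of all genes called with the ERCC sum, with quantile normalization and without overlapping loci are not given here. The counts of members in these settings are therefore no result about the members. With trimmed-mean scaling 81 of 89 members were above 0, where 2 were as deposited. Of the members named here, those whose sign turned and which were called in either case were at these log2 differences: RpL10Ab 0.14, RpL14 0.38, RpL24 0.12, RpL27 0.39, RpL27A 0.38, RpL28 0.35, RpL34b 0.43, RpL36A 0.0094, RpL37a 0.43, RpLP0 0.11, RpS14a 0.19, RpS14b 0.20, RpS15 0.40, RpS24 0.36, RpS27 0.52, RpS28b 0.12 and RpS29 0.37. When scaled by the median ribosomal protein 59 were above 0, and by the same rule the turned ones were RpL10Ab at 0.016, RpS14a at 0.058, RpS14b at 0.074 and RpS27 at 0.40. Isoforms of the members called were 64 lower with the replicate block, of 166 tested, beside 29.5% of all isoforms. With trimmed-mean scaling 5 were called lower and 13 higher. The share of all isoforms called with that scaling is not given here, so these counts are no result about the members. Trimmed-mean scaling left 2 growth regulators, 1 elongation and 1 initiation factor lower, and 6 elongation factors, 6 initiation factors, 1 ribosome-associated and 1 biogenesis gene higher. Of all genes 18.8% were called lower and 21% higher with it. The cause of these changes was not tested beyond the scaling itself. The 4 pairs with an exact p of 0.0286 were 0 in the sort-paired sign flip, whose smallest p is 0.125, and 0 to 0 with 1 library left out, where the smallest p is 0.0571; these designs are too small to pass. Summed isoforms and log2 ratios gave 4 again. The summed level of the members differed by -3.21 points and by -2.45 without the 10 most abundant other genes. Depth limits statements on the 7 members under 10 FPKM.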
